A study of Mus musculus with 20 samples.

Results

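The MAP kinases, the kinases that act above and below them, and the dual-specificity phosphatases were examined in kidneys of mice given IgA1-containing immune complexes and the drug sparsentan. Members were chosen by name: every gene whose symbol began with Mapk, Map2k, Map3k, Map4k or Dusp, with Dusp1 left out by that rule. Of the 15780 genes in the tables, 74 met it, 51 of them kinases or partners and 22 of them Dusp genes, plus Map2k3os, an antisense RNA that carried the prefix. A gene was tested if 5 or more of the 20 libraries held 10 or more of its counts, which 72 members and 13990 genes in all did. Dusp13, with 0 to 24 counts per library, and Dusp27, with 0 to 3, were not tested.

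The series held bulk kidney RNA of 20 female NCr nude mice, 7 weeks old at purchase, 5 in each of 4 groups, and 1 library per mouse. EIC mice received 6 intravenous injections of engineered immune complexes, each made from 0.2 mg of galactose-deficient IgA1 (Gd-IgA1) and 0.1 mg of a recombinant IgG (rIgG) against it, with vehicle by gavage. EIC + S60 and EIC + S120 mice received the same complexes and, for 11 days, sparsentan by gavage at 60 or 120 mg/kg, and Control mice received saline injections and vehicle. Sparsentan blocks the endothelin A receptor and the angiotensin II type 1 receptor. Every group shared the nude background, in which T cells are largely lacking, and the gavage, and kidneys were taken on day 12. No group received sparsentan without complexes.

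MAP kinase cascades pass signals from receptors and stress to transcription in tiers. MAP4 kinases act on MAP3 kinases, which phosphorylate MAP2 kinases, and these phosphorylate the MAP kinases ERK, JNK and p38. Dual-specificity phosphatases of the MAP kinase phosphatase type remove those phosphates, and several of their genes are themselves induced by ERK or p38, which closes a feedback loop. In the kidney, ERK acts in mesangial cell proliferation, and p38 and JNK act in inflammation and tubular stress. Kinase activity in these cascades is set by phosphorylation, which RNA does not measure. The study inferred upstream kinases of the altered genes, MAP kinases among them, and the question here was whether the RNA of these genes differed between the groups.

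Total counts ranged between 12662345 and 38651781 per library, and the members took between 0.222% and 0.271% of them. Kidney markers were present in every library: the summed level of 5 proximal tubule genes was between 7126 and 10948 CPM (counts scaled to a common library size, with TMM), and that of 5 podocyte genes was between 417 and 772 CPM. The library that stood apart was that of Control mouse 653, where 4 adipocyte markers summed to 289 CPM, against at most 72.1 CPM in the other 19 libraries. Its collecting duct markers summed to 1415 CPM, against at most 658 CPM in the others. Results that rest on mouse 653 are given with and without it. The library of EIC mouse 65 had a count in every gene listed, whereas the others had between 234 and 654 genes at 0. Per-mouse values below follow mouse number, 65 to 69 in EIC, 71 to 75 in EIC + S60, 77 to 81 in EIC + S120 and 651 to 655 in Control.

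The levels of the members differed widely. Divided by exon length to compare genes, the mean over the 20 mice was highest for Mapk3 (ERK1) at 48.2 CPM per kb, followed by Map3k7cl (a gene named for its likeness to the end of TAK1) at 46.4, Mapk14 (p38 alpha) at 36.6, Mapkapk2 (a kinase that p38 activates) at 35.2 and Dusp6 (the cytoplasmic phosphatase of ERK) at 33.4 CPM per kb. Map2k1 and Map2k2 (MEK1 and MEK2), the kinases that activate ERK, were level at 21.1 and 20.7 CPM per kb. The p38 and JNK modules were uneven. Mapk14 stood far above the other p38 genes, of which Mapk11 (p38 beta) had 0.804, Mapk12 (p38 gamma) 1.32 and Mapk13 (p38 delta) 2.33 CPM per kb. Of the JNK genes, Mapk9 (JNK2) had 9.73, Mapk8 (JNK1) 1.28 and Mapk10 (JNK3, best known from brain) 0.0487 CPM per kb.

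Among the MAP3 kinases, Map3k11 (MLK3) was highest at 13.5 CPM per kb and Map3k8 (TPL2, which acts in macrophages) lowest at 0.180 CPM per kb. Among the MAP4 kinases, Map4k3 was highest at 5.53 and Map4k1, a kinase of blood cells, lowest at 0.213 CPM per kb. The highest and lowest of the other groups were Map2k5 (7.29) and Mapk7 (ERK5, 1.17) in the ERK5 module, Mapk4 (7.77) and Mapk15 (3.29) among atypical MAP kinases, and Mapkapk2 and Mapkapk3 (1.54 CPM per kb) among kinases that MAP kinases activate. Map2k4 led the JNK module at 11.03 CPM per kb, and Mapk8ip2, a JNK scaffold, was the lowest scaffold at 0.0777 CPM per kb. Of the phosphatases, Dusp4 (5.595) and Dusp2 (0.229) were the extremes of the nuclear inducible group, Dusp6 and Dusp9 (3.31) of the cytoplasmic ERK group, Dusp16 (5.05) and Dusp10 (0.387) of the JNK and p38 group, and Dusp28 (15.9) and Dusp27 (0.0119 CPM per kb) of the atypical group.

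**Figure D1:**
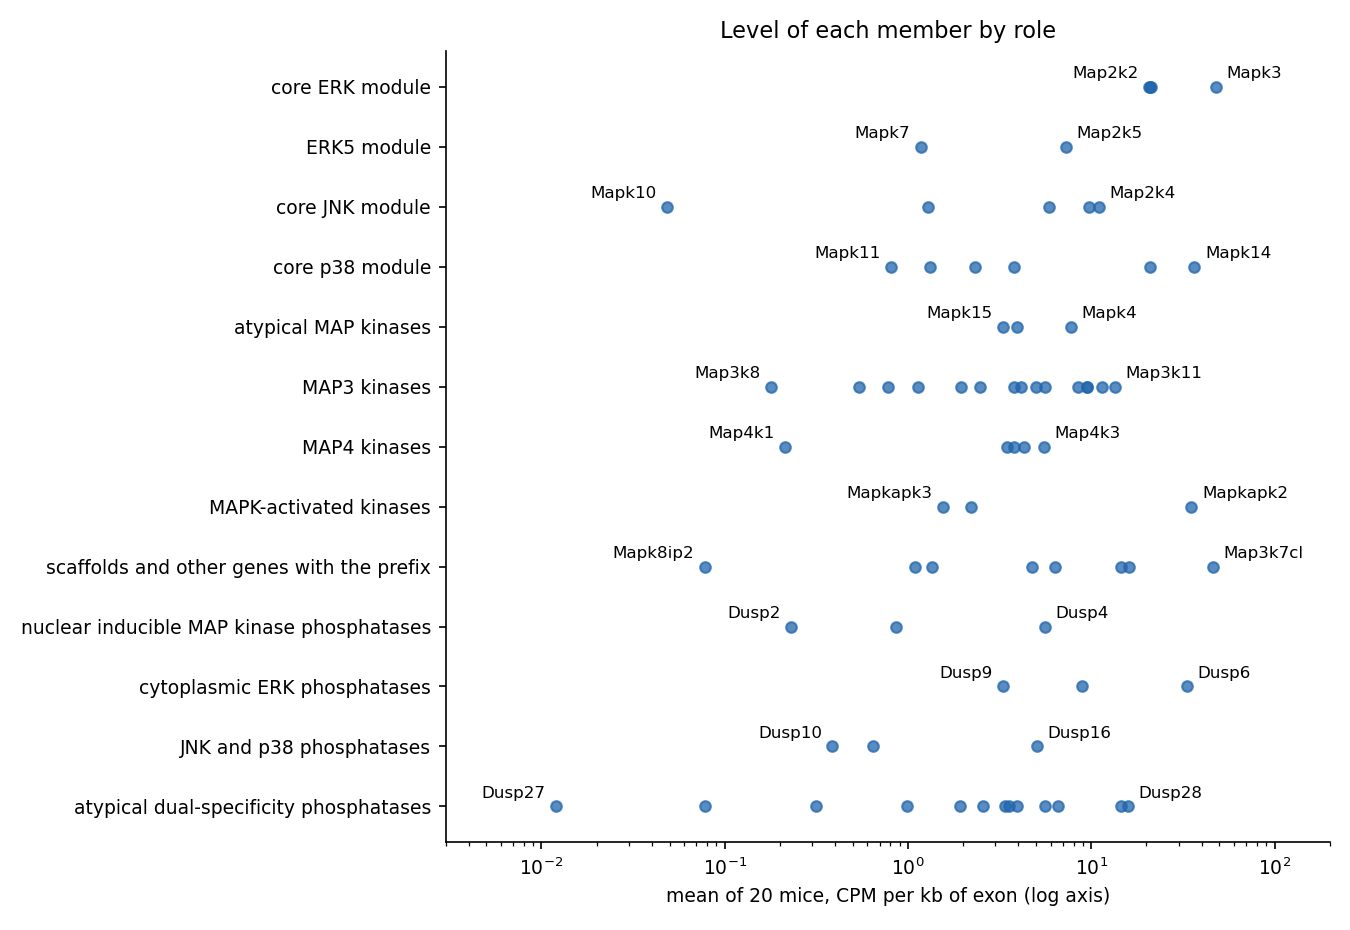
Level of each member on the role lists as the mean of 20 mice in CPM per kb of exon, on a log axis, with 1 row per role and the highest and lowest member of each row named. Mapk3 was highest at 48.2 and Dusp27 lowest at 0.0119 CPM per kb.

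The coefficient of variation (CV) within groups, a measure of spread between mice, had a median of 10.996% over the 72 tested members. It was under 10% for 31 of them, the lowest being Mapkap1 (a subunit of the mTORC2 complex, named with the prefix) at 3.57%, and Mapk3 had 4.91%. It was over 30% for 9 members, and the highest was Mapk8ip2 at 104%, a gene near the limit of detection. The inducible phosphatases had higher CVs than Mapk3, with 49.5% for Dusp2, 29.3% for Dusp6, 28.5% for Dusp7 and 20.9% for Dusp4.

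Differences between groups were tested with edgeR's quasi-likelihood test over all 13990 genes, and a gene was called at a Benjamini-Hochberg adjusted p under 0.05. In the comparison of EIC vs. Control, 4 of 72 members were called, 1 higher and 3 lower, while 2.97% of all genes tested were called, 1.61% higher and 1.37% lower. The kinase Map2k3 was higher, and the phosphatase Dusp14, the kinase Mapk9 and the scaffold Mapkbp1 were lower. No member was called in EIC + S60 vs. EIC, where 0% of all genes were called, and 1 was called in EIC + S120 vs. EIC, where 0.0572% were. That member was Map3k5. In EIC + S120 vs. Control, 7 members were called, 3 higher and 4 lower, against 5.55% of all genes, 2.89% higher and 2.67% lower. None was called in EIC + S60 vs. Control, against 1.29% of all genes, and Map3k5 alone in EIC + S120 vs. EIC + S60, against 0.0643%. The comparisons with EIC share its 5 mice, and those with Control share its 5 mice.

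Over the 72 members, the median log2 fold change (LFC) was -0.02 in EIC vs. Control, 0.02 for EIC + S60 and 0.01 for EIC + S120, each vs. EIC, against -0.01, -0.00168 and 0.00163 over all genes tested. For EIC + S120 vs. Control it was -0.07 over the members and -0.01 over all genes. The median size of the change, without sign, was 0.13 for members and 0.12 for all genes in EIC vs. Control, and 0.15 and 0.13 in EIC + S120 vs. Control. The plot of LFC by role shows most members near 0 in each comparison.

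**Figure D2:**
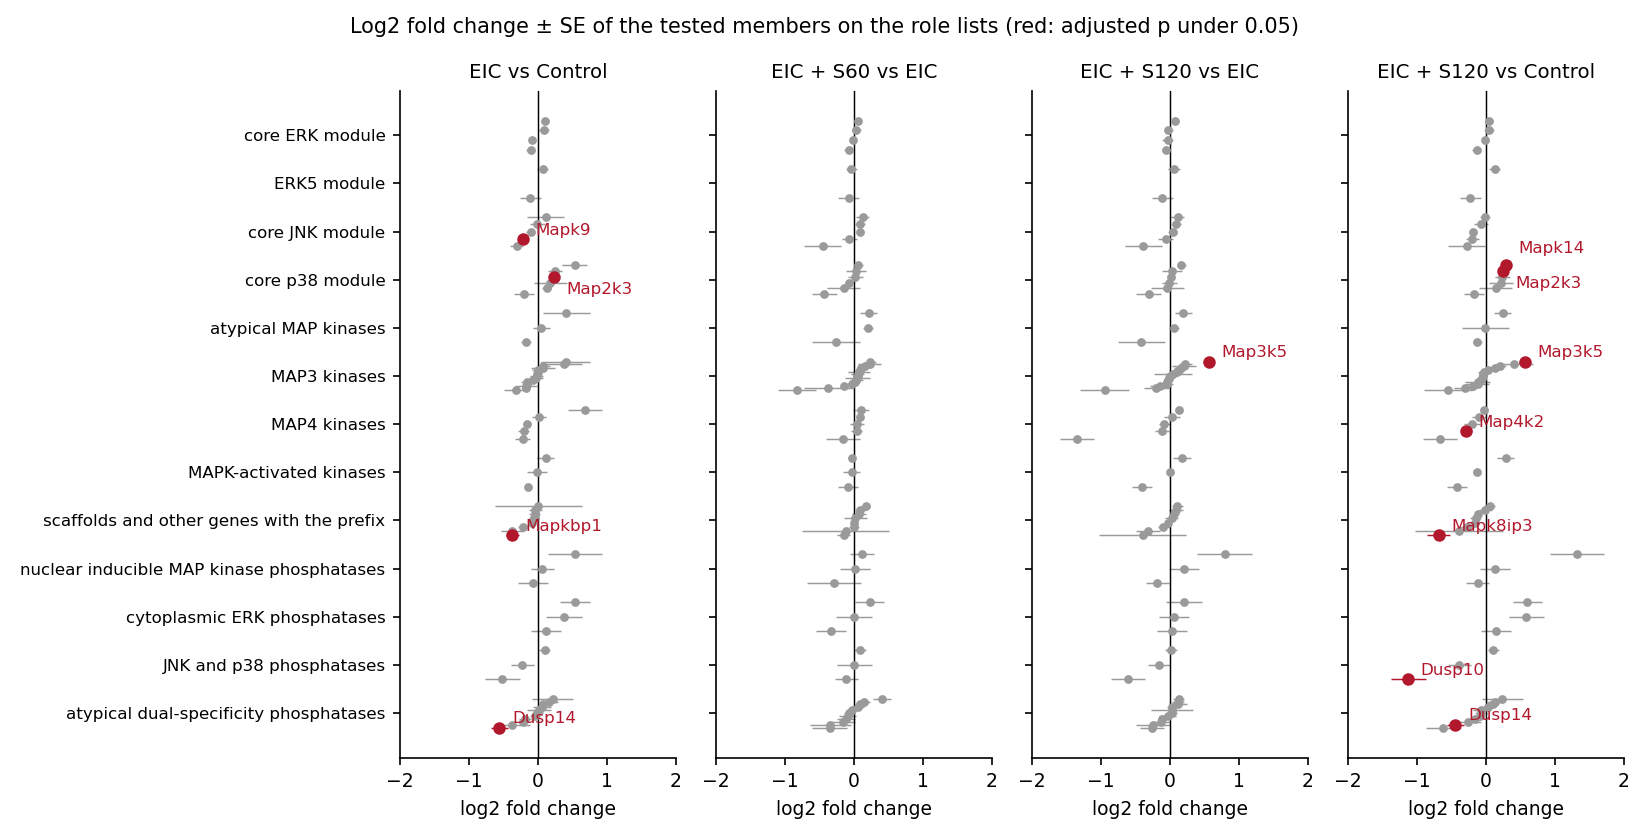
LFC with its standard error (SE) for the 71 tested members on the role lists, in 4 comparisons, 1 row per role and 1 point per gene, with called genes in red and named. The point farthest right among those called is Map3k5 at 0.56 in both comparisons of EIC + S120, and the one farthest left is Dusp10 at -1.13 in EIC + S120 vs. Control.

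Map3k5 (chr10:19934472-20142753, plus strand, GRCm38) encodes ASK1, a MAP3 kinase held inactive by thioredoxin that, under oxidative stress, activates the p38 and JNK branches. It was higher in EIC + S120 mice than in each of the other groups. Map3k5 had 64.95, 75.9, 72.1, 88.7 and 77.8 CPM in EIC + S120 mice, against 51.7, 54.2, 47.1, 51.9 and 51.7 CPM in EIC mice. In EIC + S60 mice it had 51.7, 51.5, 46.5, 55.98 and 53.2 CPM, and in Control mice 60.9, 48.5, 50.8, 46.4 and 50.1 CPM. The lowest EIC + S120 mouse, at 65.0 CPM, was above the highest of the other 15, Control mouse 651 at 60.9 CPM, so EIC + S120 overlapped with no other group. The means were 51.3 ± 2.57 in EIC, 51.8 ± 3.46 in EIC + S60, 75.9 ± 8.69 in EIC + S120 and 51.3 ± 5.61 CPM in Control (SD, n = 5 mice each).

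The LFC of Map3k5 was 0.56 in EIC + S120 vs. EIC (SE 0.078, edgeR adjusted p = 0.00628), 0.56 vs. Control (edgeR adjusted p = 0.000140) and 0.55 vs. EIC + S60 (edgeR adjusted p = 0.00441). The last is a test of the difference between the doses. In EIC + S60 vs. EIC the LFC was 0.01 (SE 0.078, edgeR adjusted p = 0.989), and in EIC vs. Control it was -0.00171 (edgeR adjusted p = 0.994). Leaving out any of the 20 mice kept Map3k5 called in EIC + S120 vs. EIC, with an LFC between 0.49 and 0.61 and an edgeR adjusted p of at most 0.0430. Bulk RNA was measured, so more RNA per cell and more cells of an expressing type cannot be told apart. The summed proximal tubule markers overlapped between the groups, at 8561 to 10845 CPM in EIC + S120 and 8703 to 10794 CPM in EIC. In the same comparison, 4 of 4 thick ascending limb and distal tubule markers (median LFC -0.35), 4 of 4 tested collecting duct markers (median LFC -0.27) and 10 of 10 macrophage and monocyte markers (median LFC -0.85) had a negative LFC. By edgeR 0 of these were called, while 1, 1 and 7 in that order had an unadjusted p under 0.05, as did 8.45% of all genes. Mesangial and mural cell markers summed to 564 to 961 CPM in EIC + S120, 526 to 960.0 CPM in EIC + S60 and 224 to 349 CPM in EIC. In EIC + S120 vs. EIC, 1 of the 6 was called and higher, the renin gene Ren1. Most of the sum was Ren1, at 464 to 862 CPM in EIC + S120 mice and 136 to 231 CPM in EIC mice. Of the 6, 3 had a positive and 3 a negative LFC. The part of these markers in the level of Map3k5 was not tested.

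Some genes that glucocorticoids induce also differed between groups. Fkbp5, a glucocorticoid-induced co-chaperone, averaged 154 ± 55.4 CPM in EIC + S120 and 55.9 ± 17.0 CPM in EIC + S60 (SD, n = 5 mice each; LFC 1.46, edgeR adjusted p = 0.0391). In EIC + S120 vs. Control, 4 of 10 such genes were called and higher, Mt1, Mt2, Fkbp5 and Tsc22d3, against 5.55% of all genes. Mt1 and Mt2 were also called higher in EIC vs. Control and in EIC + S60 vs. Control, against 2.97% and 1.29% of all genes. In EIC + S120 vs. EIC, 0 of the 10 genes were called by edgeR and 3 had an unadjusted p under 0.05, as did 8.45% of all genes. Their part in the level of Map3k5 was not tested. Among the regulators of the stress branch, Txn1 (the thioredoxin that binds ASK1) averaged 295 ± 29.6 CPM in EIC + S120 and 247 ± 11.8 CPM in Control (SD, n = 5 mice each; LFC 0.26, edgeR adjusted p = 0.0371). It was the 1 gene of 10 partners of that branch that was called in any comparison, and 5.55% of all genes were called in EIC + S120 vs. Control. In EIC + S120 vs. EIC, 4 of the 10 had an unadjusted edgeR p under 0.05, as did 8.45% of all genes. The nearest relatives of Map3k5 were not called in any comparison. Map3k15 (ASK3) had an LFC of 0.22 (SE 0.094, edgeR adjusted p = 0.521) and Map3k6 (ASK2) of 0.04 (SE 0.27, edgeR adjusted p = 0.987) in EIC + S120 vs. EIC. Between the doses, in EIC + S120 vs. EIC + S60, Map3k6 had an LFC of 0.87 (SE 0.27, edgeR adjusted p = 0.353), with 4 of 5 EIC + S120 mice above every EIC + S60 mouse, and Map3k15 one of 0.19 (SE 0.094, edgeR adjusted p = 0.633). Exons of Map3k15 overlap those of Pdha1 on the other strand by 603 bases, and no source used here says how strand was counted.

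The p38 kinase Mapk14 (chr17:28691329-28748406, plus strand) and its activator Map2k3 (MKK3, chr11:60932033-60952811, plus strand) were also higher in EIC + S120 than in Control. Map2k3 had 64.5, 72.2, 77.98, 73.1 and 79.6 CPM in EIC + S120 mice, against 64.4, 62.01, 58.9, 63.9 and 59.7 CPM in Control mice. In EIC mice it had 67.3, 73.8, 75.1, 76.02 and 71.02 CPM and in EIC + S60 mice 72.02, 67.6, 68.7, 65.8 and 72.2 CPM. Every mouse given complexes, with or without sparsentan, was above every Control mouse. The LFC vs. Control was 0.23 in EIC (SE 0.057, edgeR adjusted p = 0.0262), 0.16 in EIC + S60 (edgeR adjusted p = 0.178) and 0.25 in EIC + S120 (edgeR adjusted p = 0.00980). Between the sparsentan groups and EIC it was -0.07 and 0.02, with edgeR adjusted p of 0.886 and 0.969. The call in EIC was lost without Control mouse 652 or 655 or EIC mouse 67 or 68, where the edgeR adjusted p reached 0.0638. It was also lost with the 10 libraries compared alone and without the deepest libraries, at an edgeR adjusted p of up to 0.0625.

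Mapk14 had 156, 176, 177, 187 and 183 CPM in EIC + S120 mice, against 160.0, 146, 130.4, 143 and 137 CPM in Control mice. EIC + S120 mouse 77 lay below the highest Control mouse. The LFC was 0.30 (SE 0.066, edgeR adjusted p = 0.00931), and it was 0.17 in EIC + S120 vs. EIC (edgeR adjusted p = 0.490) and 0.13 in EIC vs. Control (SE 0.066, edgeR adjusted p = 0.326). From high to low, the means of Mapk14 were 176 ± 11.7 in EIC + S120, 164 ± 8.75 in EIC + S60, 157 ± 11.3 in EIC and 143 ± 11.2 CPM in Control (SD, n = 5 mice each), and no neighbours in that order differed at the threshold. In EIC + S120 vs. Control, Map3k5, Map2k3 and Mapk14 stayed called in each alternative fit and without any single mouse.

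**Figure D3:**
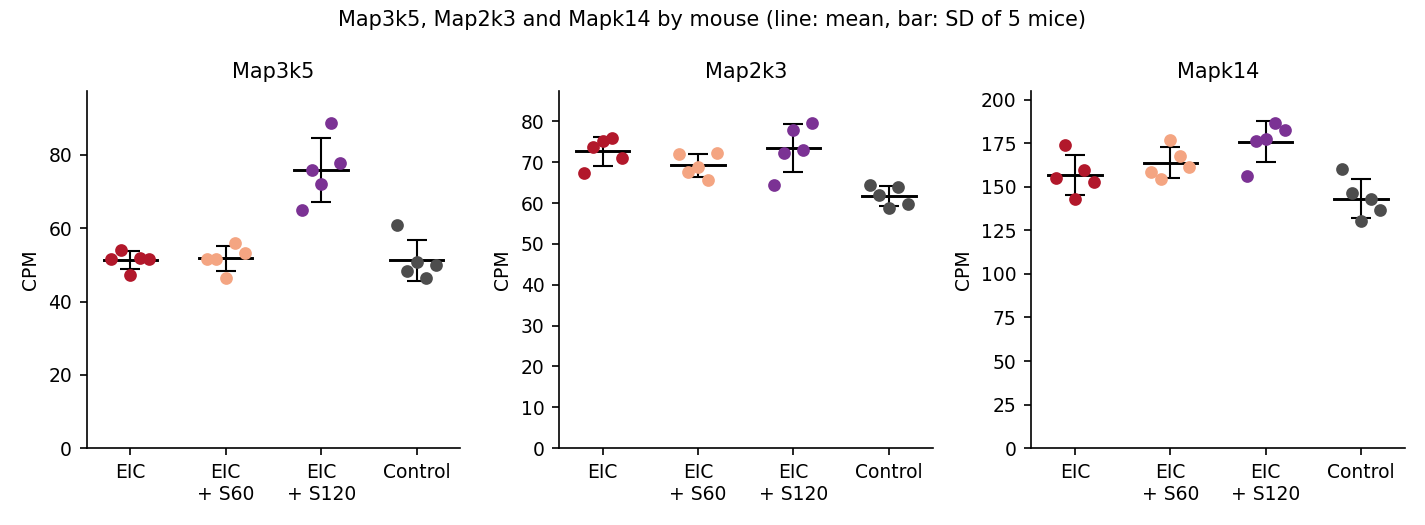
Map3k5, Map2k3 and Mapk14 in CPM (vertical axes from 0), 1 point per mouse, with the mean as a line and the SD as a bar over 5 mice of EIC, EIC + S60, EIC + S120 and Control. Map3k5 is set apart in EIC + S120 (65.0 to 88.7 CPM), and Map2k3 is lowest in Control (58.9 to 64.4 CPM).

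The promoters of these 3 genes are shown because they were higher together in EIC + S120 than in Control. They come from RefSeq on GRCm38.p6, each of 300 bases, most of them before an annotated start, on the gene's strand, for Map3k5 at chr10:19934276-19934575, Map2k3 at chr11:60931804-60932103 and Mapk14 at chr17:28691092-28691391 and, for another start, chr17:28692318-28692617, all on the plus strand. Capitals mark matches to the motifs searched.
Map3k5: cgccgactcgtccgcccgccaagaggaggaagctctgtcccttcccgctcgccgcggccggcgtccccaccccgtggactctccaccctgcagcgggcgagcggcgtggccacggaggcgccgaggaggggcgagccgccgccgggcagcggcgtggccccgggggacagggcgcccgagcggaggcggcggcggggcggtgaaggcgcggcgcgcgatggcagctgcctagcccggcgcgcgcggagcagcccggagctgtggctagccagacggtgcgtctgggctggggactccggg
Map2k3: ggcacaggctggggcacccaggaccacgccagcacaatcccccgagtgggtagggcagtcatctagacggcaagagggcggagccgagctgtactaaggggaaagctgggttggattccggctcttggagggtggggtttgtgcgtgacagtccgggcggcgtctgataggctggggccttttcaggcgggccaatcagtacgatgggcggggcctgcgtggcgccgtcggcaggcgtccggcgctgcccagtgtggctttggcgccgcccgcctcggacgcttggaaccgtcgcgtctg
Mapk14, start 1: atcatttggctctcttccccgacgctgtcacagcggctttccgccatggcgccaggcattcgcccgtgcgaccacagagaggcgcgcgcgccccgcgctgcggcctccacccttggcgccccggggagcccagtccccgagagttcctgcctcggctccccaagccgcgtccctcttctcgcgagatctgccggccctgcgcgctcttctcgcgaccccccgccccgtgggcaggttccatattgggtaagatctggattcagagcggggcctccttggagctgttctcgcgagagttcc
Mapk14, start 2: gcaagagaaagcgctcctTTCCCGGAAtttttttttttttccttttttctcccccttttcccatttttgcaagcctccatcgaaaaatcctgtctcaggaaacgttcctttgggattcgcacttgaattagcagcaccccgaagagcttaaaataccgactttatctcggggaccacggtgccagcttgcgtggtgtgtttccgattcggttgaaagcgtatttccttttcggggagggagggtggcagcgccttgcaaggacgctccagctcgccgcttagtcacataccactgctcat

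Both strands were searched for the E-box CACGTG, the CRE core TGACG, the GAS element TTCNNNGAA and the serum response element. No match lay in the windows of Map3k5, Map2k3 or the first start of Mapk14, and the second start of Mapk14 held a GAS match. The window of Map3k5 was 79.7% G or C, and those of Map2k3 and the first Mapk14 start were 68.0% and 68.7%. Of the 58 members with a promoter in the table, 24 (41.4%) held the CRE core, 5 (8.62%) the E-box, 3 (5.17%) GAS and 1 (1.72%) the serum response element. Over all 27025 genes the shares were 23.0%, 8.09%, 9.55% and 1.81%. These are letter matches, and none was tested for binding.

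Of the ERK kinase Mapk3 and the kinases above it, Map2k1 and Map2k2, 0 were called in any comparison by edgeR, DESeq2 or limma-voom, and 1, Map2k1 in EIC + S120 vs. Control, had an unadjusted edgeR p under 0.05. Mapk3 averaged 112 ± 8.69, 111 ± 2.51, 108 ± 4.39 and 104 ± 3.63 CPM in EIC, EIC + S60, EIC + S120 and Control (SD, n = 5 mice each). In EIC vs. Control its LFC was 0.11 (SE 0.053, edgeR adjusted p = 0.301). For the kinases above it the LFC was -0.11 for Map2k1 and 0.08 for Map2k2, with SE of 0.063 and 0.074. Against EIC, in both sparsentan groups, these 3 genes had LFC between -0.07 and 0.03. Mapk7 (ERK5), which receives its signal from Map2k5, had an LFC of -0.11 (SE 0.15) in EIC vs. Control, and neither gene was called in any comparison.

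In the JNK module, Mapk9 (chr11:49846751-49886421, plus strand) was lower in EIC, and Mapk8 had values in the same direction. Mapk9 had 60.6, 70.6, 63.6, 54.3 and 61.3 CPM in EIC mice, against 72.9, 73.2, 76.1, 66.8 and 72.3 CPM in Control mice. EIC mouse 66, at 70.6 CPM, lay above the lowest Control mouse at 66.8 CPM, and the LFC was -0.22 (SE 0.059, edgeR adjusted p = 0.0424). Mapk8 had 12.5 to 14.2 CPM in EIC mice, against 13.8 to 19.4 CPM in Control mice, with an LFC of -0.31 (SE 0.094, edgeR adjusted p = 0.0790). Mapk10 had 0.468 to 0.872 CPM in EIC mice, against 0.340 to 0.809 CPM in Control mice. The call for Mapk9 was lost in 15 of the 20 fits without 1 mouse, where its edgeR adjusted p reached 0.129 and its LFC stayed between -0.25 and -0.16. The call was also lost with no filter, with the 10 libraries compared alone and without the deepest libraries, at an edgeR adjusted p of up to 0.183. In EIC + S60 and EIC + S120 vs. EIC the LFC of Mapk9 was 0.08 and 0.04 (edgeR adjusted p = 0.853 and 0.906).

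The other p38 genes had no call. Mapk12 had 3.72 to 8.30 CPM in EIC mice, against 3.51 to 5.29 CPM in Control mice (LFC 0.53, SE 0.18, edgeR adjusted p = 0.118), and the groups overlapped. Its LFC was -0.43 for EIC + S60 vs. EIC (SE 0.18, edgeR adjusted p = 0.755) and -0.31 for EIC + S120 vs. EIC. Mapk13 had 7.15 to 8.19 CPM in EIC mice, against 5.80 to 7.55 CPM in Control mice (LFC 0.25, SE 0.11, edgeR adjusted p = 0.250), and Mapk11 had an LFC of 0.18 with an SE of 0.24. Of the 6 genes of the p38 module, 5 had a positive LFC in EIC vs. Control, as did 47.6% of all genes tested. Of the 6, 1 was called, Map2k3, against 2.97% of all genes.

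Dusp14 (MKP6, chr11:84048041-84069261, minus strand), an atypical phosphatase known to restrain T cell receptor signalling, was the member with the smallest p in EIC vs. Control. It had 10.9, 11.8, 10.7, 9.59 and 9.73 CPM in EIC mice, against 16.9, 15.99, 13.1, 19.7 and 11.8 CPM in Control mice. Control mouse 655 and EIC mouse 66 were level at 11.8 CPM, and the LFC was -0.56 (SE 0.13, edgeR adjusted p = 0.0200). In EIC + S60 mice Dusp14 had 16.3, 11.9, 12.9, 14.2 and 14.4 CPM, each above every EIC mouse, with an LFC of 0.40 vs. EIC (SE 0.13) and an edgeR adjusted p of 0.738. In EIC + S120 mice it had 9.66, 10.9, 13.8, 10.1 and 12.7 CPM, with an LFC of 0.12 vs. EIC (SE 0.13, edgeR adjusted p = 0.840) and -0.44 vs. Control (edgeR adjusted p = 0.0446). The call in EIC was lost without Control mouse 651 or 654 or EIC mouse 68 or 69, at an edgeR adjusted p of up to 0.0612. It was also lost with the 10 libraries compared alone and without the deepest libraries, at an edgeR adjusted p of up to 0.155. The call in EIC + S120 was lost in 13 of the 20 fits without 1 mouse and in 3 of the 6 other alternatives.

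Mapkbp1 (chr2:119972699-120027408, plus strand), a scaffold that binds JNK, was lower in EIC without overlap, at 8.98, 8.89, 9.38, 9.77 and 9.62 CPM in EIC mice, against 11.5, 10.6, 13.3, 11.8 and 13.3 CPM in Control mice. The LFC was -0.37 (SE 0.10, edgeR adjusted p = 0.0446), and 14 of the 20 fits without 1 mouse lost the call, with an edgeR adjusted p of up to 0.102. Of the 6 other alternatives, 4 lost it. Exons of Mapkbp1 overlap those of Gm13999 on the other strand by 627 bases, and reads of the 2 genes cannot be told apart if strand was ignored. Next by p came Mapk1ip1l, at 45.2 to 52.0 CPM in EIC mice and 52.3 to 63.8 CPM in Control mice (LFC -0.22, SE 0.066, edgeR adjusted p = 0.0704).

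Without mouse 653, 2 members stayed called in EIC vs. Control, Dusp14 and Map2k3, and without EIC mouse 65 the same 2. Over the fits that left out 1 mouse the number called was between 0 and 5. The count of 0 was without EIC mouse 68.

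Against Control, EIC + S120 mice had 4 members called lower, of which Dusp14 is given above. Dusp10 (MKP5, chr1:184013302-184075636, plus strand), the nuclear and cytoplasmic phosphatase of p38 and JNK, had 0.652, 0.774, 0.978, 0.693 and 0.655 CPM in EIC + S120 mice, against 1.38, 1.61, 2.92, 1.02 and 1.32 CPM in Control mice. The groups did not overlap, and the LFC was -1.13 (SE 0.25, edgeR adjusted p = 0.0215). The highest value was that of Control mouse 653, and without it the LFC was -0.85 and the edgeR adjusted p 0.0610. The call was also lost without EIC + S120 mouse 80 or 81 (edgeR adjusted p = 0.0541 and 0.0610) and with the 10 libraries compared alone (edgeR adjusted p = 0.0547). EIC mice had 0.788 to 1.64 CPM, and the LFC of EIC + S120 vs. EIC was -0.61 (edgeR adjusted p = 0.591).

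Mapk8ip3 (JIP3, chr17:24892153-24936977, minus strand), a JNK scaffold that links cargo to kinesin, had 13.7, 14.6, 10.02, 11.9 and 11.5 CPM in EIC + S120 mice, against 15.9, 14.5, 31.4, 18.4 and 19.96 CPM in Control mice. Control mouse 653 again had the highest value. With it the LFC was -0.69 (SE 0.17, edgeR adjusted p = 0.0273), and without it -0.47 (edgeR adjusted p = 0.0655). The call was also lost without EIC + S120 mouse 79, 80 or 81 (edgeR adjusted p = 0.0801, 0.0663 and 0.0763), with the 10 libraries compared alone (edgeR adjusted p = 0.0816) and with limma-voom (adjusted p = 0.0757). Adipocyte and collecting duct markers were high in the same library, and their part in these values was not tested. Exons of Mapk8ip3 overlap those of Eme2 on the same strand by 1557 bases, and those of Mrps34 and Nme3 on the other strand by 1309 and 577 bases. Map4k2 (chr19:6341135-6355615, plus strand), a MAP4 kinase that feeds JNK, had 24.7, 19.8, 19.5, 21.7 and 20.4 CPM in EIC + S120 mice, against 26.4, 23.4, 25.7, 27.9 and 25.9 CPM in Control mice. EIC + S120 mouse 77, at 24.7 CPM, lay above the lowest Control mouse, and the LFC was -0.28 (SE 0.083, edgeR adjusted p = 0.0490). The call was lost in 15 of the 20 fits without 1 mouse, that without Control mouse 653 among them. Of the 6 other alternatives, 5 lost it. Exons of Map4k2 overlap those of Gm14966 on the other strand by 94 bases.

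**Figure D4:**
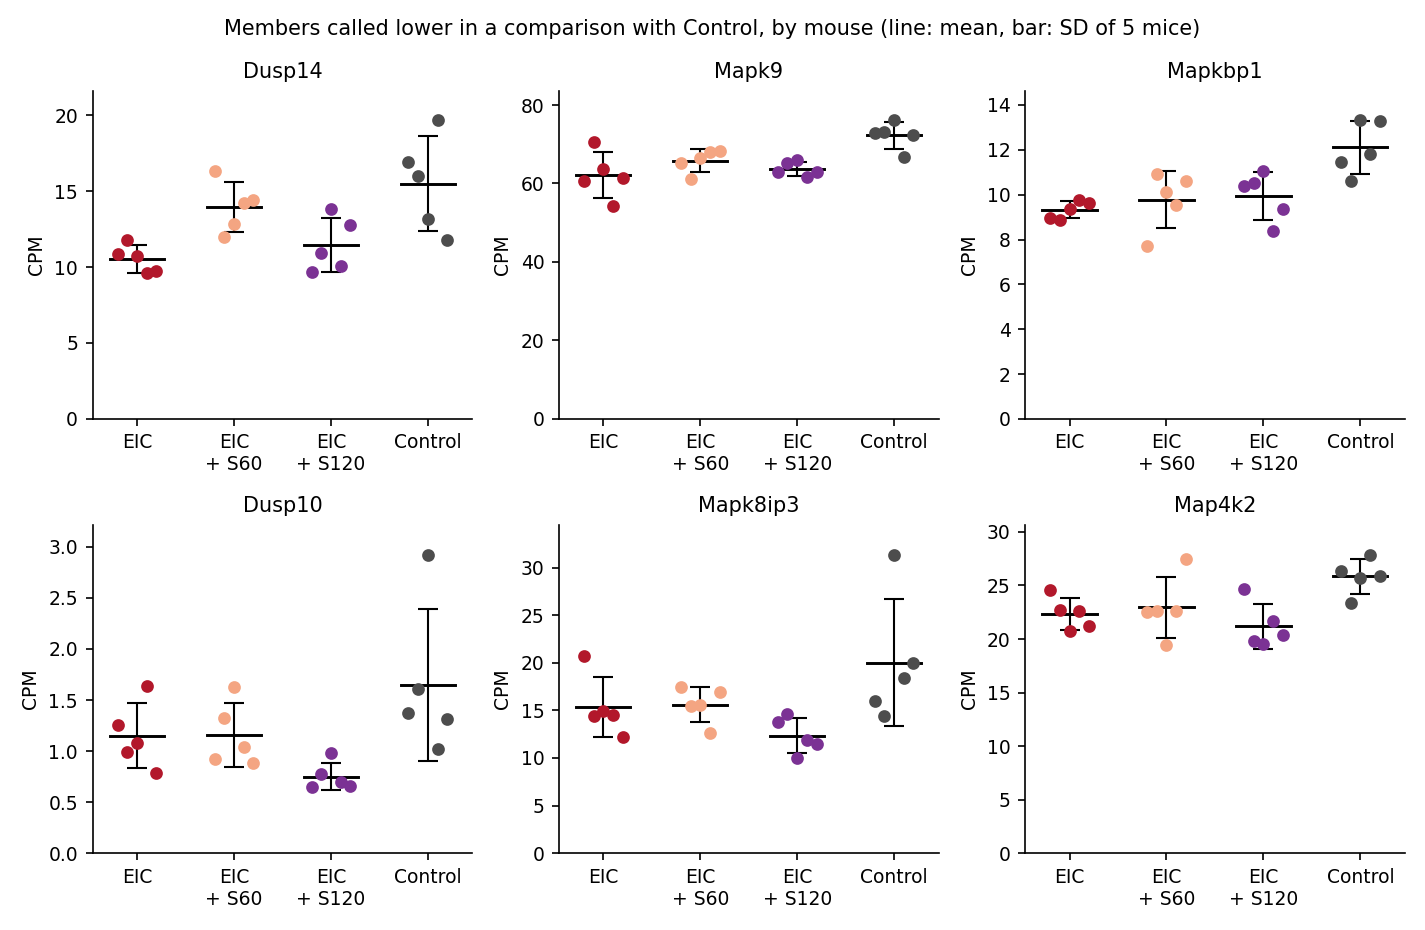
The 6 members called lower in EIC or EIC + S120 vs. Control, in CPM (vertical axes from 0), 1 point per mouse, with the mean as a line and the SD as a bar over 5 mice of EIC, EIC + S60, EIC + S120 and Control. Control mouse 653 is the top point for Dusp10 (2.92 CPM) and Mapk8ip3 (31.4 CPM).

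Map4k1 (HPK1, chr7:28982050-29003279, plus strand), the MAP4 kinase of blood cells, was called in the test for any difference across the 4 groups, together with Map3k5, Dusp14 and Map2k3 (edgeR adjusted p = 0.0357, 0.000106, 0.0325 and 0.0327 in that order). That test called 4 of 72 members and 3.55% of all genes. Map4k1 had 0.356, 0.357, 0.306, 0.378 and 0.357 CPM in EIC + S120 mice, against 0.869, 0.9299, 1.48, 0.643 and 0.578 CPM in EIC mice. In EIC + S60 mice it had 0.917, 1.04, 0.814, 0.602 and 0.672 CPM, and in Control mice 0.458, 0.552, 0.871, 0.476 and 0.464 CPM. Every EIC + S120 mouse lay below every mouse of the other groups. Counts of Map4k1 were low, at 10 or more in 5 of 5 EIC, 5 of 5 EIC + S60, 0 of 5 EIC + S120 and 3 of 5 Control libraries. In single comparisons the threshold was missed: the LFC was -1.34 in EIC + S120 vs. EIC (SE 0.25, edgeR adjusted p = 0.150), -1.18 vs. EIC + S60 (edgeR adjusted p = 0.155) and -0.66 vs. Control (edgeR adjusted p = 0.233).

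The levels of leukocyte markers are given beside those of Map4k1. The 10 macrophage and monocyte markers summed to 101 to 242 CPM in EIC, 86.9 to 153 CPM in EIC + S60, 89.6 to 133 CPM in EIC + S120 and 89.4 to 109 CPM in Control, and none was at 0 in 5 or more libraries. The 4 T and NK cell markers analysed summed to 1.46 to 4.49 CPM in EIC, 1.34 to 1.64 CPM in EIC + S60, 0.593 to 1.96 CPM in EIC + S120 and 0.311 to 1.05 CPM in Control. These 4 were Ncr1, Gzma, Klrb1c and Il2rb, of which 2 passed the count filter. The T cell genes Cd3e and Cd3g were not among them, so the sum does not measure T cells as such. The 5 B and plasma cell markers summed to 1.21 to 2.73 CPM in EIC, 1.59 to 2.49 CPM in EIC + S60, 0.596 to 2.37 CPM in EIC + S120 and 1.61 to 4.79 CPM in Control. In EIC + S120 vs. EIC, 10 of 10 macrophage and monocyte markers had a negative LFC (median -0.85). So did 2 of 2 tested T and NK cell markers (median -1.17) and 2 of 3 tested B and plasma cell markers (median -0.52). By edgeR 0 of these were called. In that order 7, 2 and 0 had an unadjusted p under 0.05, as did 8.45% of all genes. In EIC + S120 vs. EIC + S60, 9 of 10, 2 of 2 and 3 of 3 were negative, with 0 called and 2, 0 and 1 at an unadjusted p under 0.05. The part of these markers in the level of Map4k1 was not tested. EIC mouse 67 had the highest Map4k1, macrophage sum and T and NK cell sum.

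**Figure D5:**
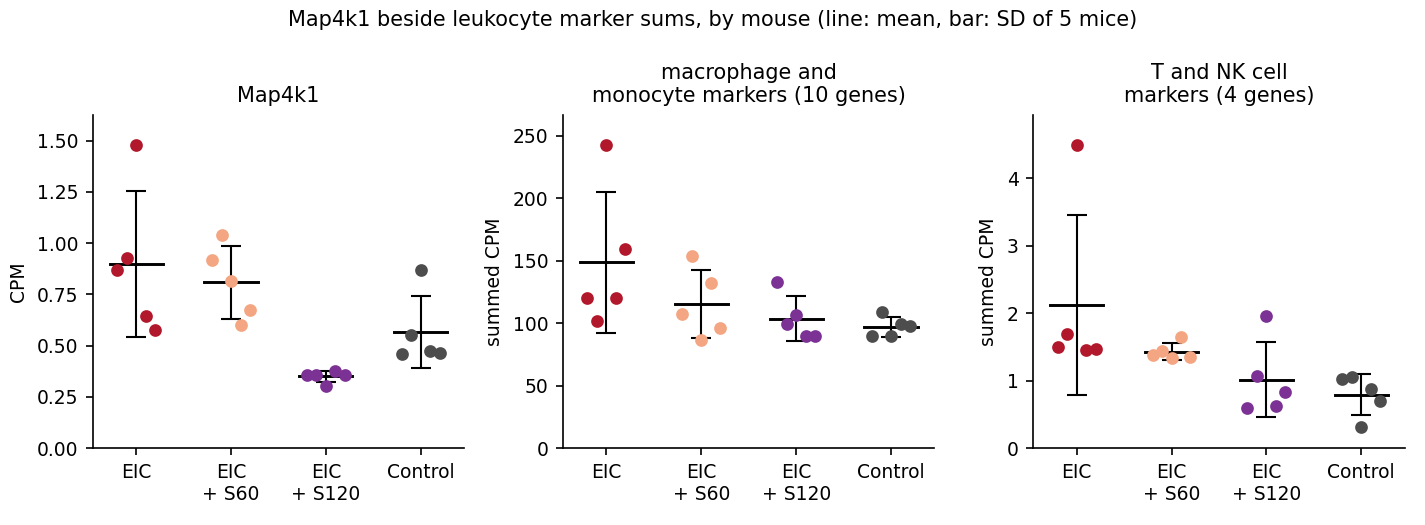
Map4k1 in CPM beside the summed CPM of 10 macrophage and monocyte markers and of 4 T and NK cell markers (vertical axes from 0), 1 point per mouse, with the mean as a line and the SD as a bar over 5 mice of EIC, EIC + S60, EIC + S120 and Control. Map4k1 in EIC + S120 lies between 0.306 and 0.378 CPM, below the other groups. The macrophage and monocyte sum spans 89.6 to 133 CPM in EIC + S120 and 101 to 242 CPM in EIC. The T and NK cell sum, of Ncr1, Gzma, Klrb1c and Il2rb, spans 0.593 to 1.96 and 1.46 to 4.49 CPM in that order.

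Of the other members with the smallest p in EIC + S120 vs. EIC, Mapkapk3 (MK3, a target of p38) had 5.87 to 8.53 CPM in EIC + S120 mice, against 8.36 to 10.04 CPM in EIC mice (LFC -0.41, SE 0.15, edgeR adjusted p = 0.433). Map3k8 had 0.179 to 0.820 CPM in EIC + S120 mice, against 0.736 to 1.30 CPM in EIC mice (LFC -0.95, SE 0.36, edgeR adjusted p = 0.506). Both pairs of groups overlapped, and neither passed the test. Map3k15 had 44.7 to 62.1 CPM in EIC + S120 mice, against 40.3 to 54.6 CPM in EIC mice.

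The lower dose had no member called. By edgeR, 7 of 72 members had an unadjusted p under 0.05 in EIC + S60 vs. EIC, as did 6.05% of all genes, and DESeq2 and limma-voom called 0 members. After Dusp14, the smallest p was that of Map3k6 (ASK2), at 1.26 to 2.12 CPM in EIC + S60 mice, against 1.395 to 4.104 CPM in EIC mice (LFC -0.82, SE 0.27, edgeR adjusted p = 0.738). Mapk6 (ERK3) followed with 25.3 to 30.5 CPM in EIC + S60 mice, against 21.7 to 25.6 CPM in EIC mice (LFC 0.20, SE 0.071). Map3k2 (MEKK2), which feeds ERK5, had an LFC of 0.24 (SE 0.083), and Mapk1ip1l one of 0.17 (SE 0.066). Map3k10 (MLK2) had 21.3 to 22.1 CPM in EIC + S60 mice, against 22.7 to 24.8 CPM in EIC mice, without overlap (LFC -0.14, SE 0.056, edgeR adjusted p = 0.755). In EIC + S60 vs. Control, 10 of 72 members had an unadjusted edgeR p under 0.05, as did 12.7% of all genes. There limma-voom called 0 members, while DESeq2 called 1, Mapkapk2, with an edgeR LFC of -0.17 (SE 0.049, edgeR adjusted p = 0.0969).

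The inducible phosphatases, whose RNA often follows ERK activity, gave no call. Dusp6 had 77.8 to 151 CPM in EIC mice, against 50.02 to 109 CPM in Control mice, with an LFC of 0.38 (SE 0.26, edgeR adjusted p = 0.497). Dusp7 had an LFC of 0.54 (SE 0.22, edgeR adjusted p = 0.215) in EIC vs. Control and -0.34 (SE 0.22, edgeR adjusted p = 0.847) in EIC + S60 vs. EIC. Dusp4 had LFC of 0.06 in EIC vs. Control, and 0.12 and -0.18 in the EIC + S60 and EIC + S120 groups vs. EIC. In EIC + S120 vs. Control the LFC was 0.59 for Dusp6 (SE 0.26, edgeR adjusted p = 0.212) and 0.60 for Dusp7 (SE 0.22, edgeR adjusted p = 0.126). For Dusp4 it was -0.12 (SE 0.17, edgeR adjusted p = 0.747). Dusp2, a phosphatase of activated immune cells, had 0.611 to 0.953 CPM in EIC + S120 mice, against 0.189 to 0.622 CPM in Control mice. It had 10 or more counts in 5 of 5 EIC + S120 libraries and in 4 of the other libraries, so it passed the filter on low counts only through the group where it was high, and no test is read from it.

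Few of the other signalling genes around the members were called in EIC vs. Control. Rras, a RAS relative, averaged 26.005 ± 4.84 CPM in EIC and 19.4 ± 1.42 CPM in Control (SD, n = 5 mice each; LFC 0.42, edgeR adjusted p = 0.0428), and it was the 1 called of 11 RAS and RAF genes. Mknk1, a kinase that ERK and p38 activate and that phosphorylates the cap-binding protein eIF4E, averaged 19.1 ± 1.48 CPM in EIC and 15.5 ± 0.939 CPM in Control (LFC 0.31, edgeR adjusted p = 0.0236). It was the 1 called of 8 such kinases, while 2.97% of all genes were called in EIC vs. Control. It was also called vs. Control in EIC + S60 (edgeR adjusted p = 0.0245) and EIC + S120 (edgeR adjusted p = 0.00665). Of 11 RAS adaptors and exchange factors and 14 inhibitors of the RAS-ERK path, 0 were called by edgeR in any comparison. In EIC vs. Control, 1 and 3 in that order had an unadjusted edgeR p under 0.05, as did 16.8% of all genes. Other tools were not run for these lists.

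Of the transcription factors that MAP kinases act on, 5 of 21 were called in EIC vs. Control, against 2.97% of all genes, and each was lower: Fos, Egr1, Egr2, Junb and Jun. In EIC + S60 vs. Control, 3 were called and lower, against 1.29% of all genes: Fos, Egr1 and Fosb. In that comparison 11 of the 21 had an unadjusted edgeR p under 0.05, as did 12.7% of all genes. Fos averaged 1.87 ± 1.36 CPM in EIC and 16.4 ± 6.79 CPM in Control (LFC -3.10, edgeR adjusted p = 0.00341), and Egr1 averaged 6.77 ± 2.63 CPM in EIC and 59.4 ± 36.0 CPM in Control (LFC -3.12, edgeR adjusted p = 0.00506). By edgeR, 0 of the 21 were called in EIC + S120 vs. EIC and in EIC + S120 vs. Control. There 5 and 3 had an unadjusted edgeR p under 0.05, as did 8.45% and 20% of all genes in that order. In EIC + S120 vs. EIC + S60, 0 of the 21 were called and 7 had an unadjusted edgeR p under 0.05, as did 8.08% of all genes. In EIC + S120 mice Fos averaged 10.9 ± 6.68 and Egr1 54.5 ± 26.1 CPM. No source used here gives the time of harvest of each mouse.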

How the data were processed

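Kidney RNA of 20 mice was sequenced after poly(A) selection, 1 library per mouse. The processing notes of the submitters name Trimmomatic 0.36, STAR 2.5.2b, featureCounts, Subread 1.5.2 and the build GRCm38. The authors deposited raw counts per gene. No source used here gives their annotation or strand setting, so reads of overlapping genes may be shared. Of the 74 members, 26 have exons that overlap another gene in GENCODE M21, which gave exon lengths and coordinates.

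A gene was kept if 5 or more of the 20 libraries held 10 or more of its counts. Counts were scaled by TMM and fitted with edgeR 4.0.16 (robust quasi-likelihood, 1 coefficient per group, all libraries) in R 4.3.3, with two-sided tests and Benjamini-Hochberg adjustment over all genes tested. The SE of each LFC came from limma 3.58.1 on log2 CPM. The fit was tested on simulated data. Total counts set the precision: members at or under 1 CPM rest on few counts. Alternatives were RLE scaling, no filter, DESeq2 1.42.0, limma-voom, the 10 libraries compared alone, leaving out the deepest libraries, and leaving out each library. Mouse numbers differ between groups, so nothing was paired.

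Members, role lists and pathway lists were chosen with earlier results of these data known. Named were the members called in any comparison, the MAP kinases, the 6 members with the smallest p in each comparison with EIC or of EIC vs. Control, and the extremes of level per role. Called pathway genes were also named, planned as up to 4 per list from the same comparisons. More than 4 of the transcription factors were named. Fosb, Fkbp5, Tsc22d3 and Txn1 were named from calls in other comparisons. Dusp2, Dusp4, Dusp6, Dusp7, Mapkapk2 and the ASK relatives of Map3k5 were added after their values were seen. Protein motifs were not searched. The values of 1 MAP kinase are not reported here.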

Additional observations from a re-analysis of the deposited data

Results flagged for a closer look

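Map3k5 was flagged because the groups given sparsentan differed: its LFC in EIC + S120 vs. EIC + S60 was 0.55 (edgeR adjusted p = 0.00441), with 5 of 5 EIC + S120 mice above every EIC + S60 mouse.

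A mouse far from the other 4 of its group was sought in the 26 members chosen by p or as MAP kinases, in 104 groups of 5 mice, and 3 were found. Chance flags about 1 in 20 such groups. EIC + S60 mouse 74 had 59.1 CPM of Map3k15, and the nearest mouse 47.3 CPM. Control mouse 653 had 0.871 CPM of Map4k1, and the nearest mouse 0.552 CPM. EIC + S60 mouse 73 had 12.8 CPM of Mapk8, and the nearest mouse 14.5 CPM.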

How the results depend on the processing

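Map3k5 was called in each comparison of EIC + S120 with another group under every alternative and without any single mouse, and Map2k3 and Mapk14 in EIC + S120 vs. Control likewise. In EIC vs. Control the 4 calls became 2 with no filter, 0 with the 10 libraries compared alone and 1 (Mapk8) without the deepest libraries, and between 0 and 5 without 1 mouse. In EIC + S60 vs. Control, DESeq2 gave 1 call against 0. In EIC + S120 vs. Control the 7 calls became 3 with the 10 libraries alone and between 3 and 9 without 1 mouse. Across the 4 groups, the 4 calls became 9 with DESeq2, 2 without the deepest libraries (Control mice 651 and 652 and EIC + S60 mouse 75), and between 1 and 7 without 1 mouse. EIC + S60 vs. EIC gave 0, and EIC + S120 vs. EIC and vs. EIC + S60 gave 1, in every fit without 1 mouse. Fits with fewer libraries test with fewer mice; the cause of the other changes was not tested. Of the refits of single named members, 579 kept their side of the threshold, 94 lost and 3 gained a call, and 0 changed direction. No paired analysis was possible because mouse numbers differ between all groups. Depth limits members at or under 1 CPM, such as Dusp2, Dusp10, Map3k8 and Map4k1.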
